A study of Homo sapiens with 26 samples.

Results

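The genes described here are the protein-coding genes of human chromosome 11 that were expressed in CAL51, a triple negative breast cancer cell line. A gene was included when its mean over the 7 CAL51 libraries reached 2 FPKM, a level scaled to transcript length and library size. Members were thus selected on their position and CAL51 level, and the rule kept 541 genes, out of 1309 protein-coding genes on the chromosome and 58735 genes of every kind in the table. Each gene was described in each CAL51 library by its log2(FPKM + 1) minus the mean of that value over the 3 libraries of 2N cells. The chromosome itself was chosen by its higher median in 1 clone, large clone 2, in these same libraries, so every CAL51 difference below is a description. Counts of genes from a fit in CAL51 are given beside the share over all genes, and nothing is read from them.

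The series measured polyA RNA in 26 bulk libraries from CAL51 and the colon lines HCT116 and DLD1, to compare cells with 2N and 4N genomes and, within 4N, clones labelled small or large. The CAL51 libraries were the parental culture, 2 derived 2N clones, for which no drug is named, 1 small 4N clone and 3 large 4N clones. The 4N clones of CAL51 and HCT116 were grown from cells in which 75 µM blebbistatin, a myosin inhibitor, had blocked cytokinesis for 20 hr. The DLD1 4N clones followed 20 hr of dihydrocytochalasin at 1.5 µg/mL, and all 4N clones were isolated by limiting dilution after 48 hr without drug. HCT116 had 1 parental library, 2 clones of 2N, 3 small 4N and 3 large 4N clones, and DLD1 had 1, 2, 3 and 4. All cells grew in medium with fetal bovine serum. Each clone is a line grown from 1 cell, so a value of a single clone holds both its labelled class and the history of that clone, and these cannot be told apart. The small class of CAL51 is 1 clone. DNA copy number was not analysed here.

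Human chromosome 11 is one of the gene-dense chromosomes. It carries the imprinted growth genes at the tip of its short arm and, on its long arm, the cyclin D1 gene CCND1, which drives entry into S phase and is often amplified in breast cancer. When a cell gains or loses a whole chromosome, the RNA of most of its genes tends to move with the number of copies, by a small amount per gene that shows only over many genes. Cells that have doubled their genome often gain or lose chromosomes when they divide again. FPKM is a share of each library, so the values say nothing of the RNA in a whole cell, and in bulk RNA fewer cells with a transcript and less transcript per cell cannot be told apart.

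The libraries held 23.5 M to 44.5 M recovered reads, and those of CAL51 26.4 M to 44.5 M. Large clone 1 was the deepest, at 44.5 M, and large clone 2 held 26.9 M. In large clone 2 the genes of chromosome 11 had from 34 reads (EHF) upward, with a median of 1632. Transcripts of the mitochondrial genome took 7.60% of the reads of large clone 2, against 3.65% to 5.11% in the other CAL51 libraries. The simple-epithelium keratins KRT8 and KRT18 and the epithelial adhesion gene EPCAM were expressed in all 7 CAL51 libraries, at 32.5 to 1964, 53.1 to 1853 and 53.4 to 184 FPKM. Of the other epithelial genes, KRT19 spanned 2.28 to 93.7 FPKM, CDH1 0.193 to 11.1 and GATA3 0.350 to 1.13. Mesenchymal genes were present as well, VIM at 6.53 to 36.9, CDH2 at 3.28 to 33.95, ZEB1 at 1.93 to 4.56 and FN1 at 0.126 to 169 FPKM. The part of these wide ranges in the values below was not tested. The hormone receptor genes ESR1 and PGR reached at most 0.0217 and 0.0095 FPKM. The basal keratin KRT5 was listed at 0 in all 7, and the receptor gene ERBB2 stood at 14.9 to 22.8 FPKM. A list of 7 markers of leukocytes, endothelium and fibroblasts summed to 0.439 to 18.1 FPKM, and to 1.72 in large clone 2.

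The stretches just upstream of 5 genes are printed as examples, chosen after their values were seen, of genes that stood out in large clone 2 and had an entry in the promoter table. UCP2, COX8A, ACAT1 and SESN3 were higher there than in any other CAL51 library, and FZD4 was lower. UCP2 codes for a carrier of the inner mitochondrial membrane, COX8A for a subunit of cytochrome c oxidase, ACAT1 for a mitochondrial thiolase of ketone and isoleucine breakdown, SESN3 for a sestrin of the stress response, and FZD4 for a Wnt receptor. The sequences are from RefSeq on GRCh38.p14, 5′ to 3′ on the gene's strand. Each runs up to 250 bases before the first listed start, without bases that the annotation of the deposited table (GENCODE 29) places inside the gene. Capitals mark matches on either strand, which may overlap, to the CCAAT box (letters as in its name), the GC box (written GGGCGG), the TATA box (written TATAAA) or the AP-1 element (written TGACTCA).
UCP2 (chr11:73983308-73983452, minus strand): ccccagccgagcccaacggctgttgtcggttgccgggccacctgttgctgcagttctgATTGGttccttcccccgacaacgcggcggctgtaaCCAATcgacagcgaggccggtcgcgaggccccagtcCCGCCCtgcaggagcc
COX8A (chr11:63974370-63974606, plus strand): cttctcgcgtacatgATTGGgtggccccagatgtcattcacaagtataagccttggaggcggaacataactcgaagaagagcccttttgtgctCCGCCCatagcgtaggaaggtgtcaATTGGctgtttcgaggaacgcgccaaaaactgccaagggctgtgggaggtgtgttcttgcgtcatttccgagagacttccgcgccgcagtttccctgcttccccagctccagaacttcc
ACAT1 (chr11:108121317-108121515, plus strand): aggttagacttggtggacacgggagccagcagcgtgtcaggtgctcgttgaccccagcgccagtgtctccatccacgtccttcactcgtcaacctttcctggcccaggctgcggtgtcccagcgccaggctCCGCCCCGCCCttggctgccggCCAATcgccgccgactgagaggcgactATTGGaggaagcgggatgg
FZD4 (chr11:86955396-86955645, minus strand): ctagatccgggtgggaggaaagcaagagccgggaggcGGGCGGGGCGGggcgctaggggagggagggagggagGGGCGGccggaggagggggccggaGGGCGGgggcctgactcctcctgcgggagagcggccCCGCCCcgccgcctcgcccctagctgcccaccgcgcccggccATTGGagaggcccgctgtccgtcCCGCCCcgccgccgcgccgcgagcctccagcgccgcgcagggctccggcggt
SESN3 (chr11:95232542-95232725, minus strand): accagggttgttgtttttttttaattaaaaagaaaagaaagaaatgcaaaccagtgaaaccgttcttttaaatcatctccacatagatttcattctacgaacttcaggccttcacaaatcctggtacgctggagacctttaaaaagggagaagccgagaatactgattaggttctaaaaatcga
None of the 5 stretches held a TATA box or an AP-1 element. The UCP2, COX8A and ACAT1 stretches each held the CCAAT box 2 times, and the GC box 1, 1 and 2 times. The FZD4 stretch held the GC box 6 times and the CCAAT box 1 time. The SESN3 stretch held none of the 4 motifs. Other genes of the deposited table lie over the ACAT1 (AP002433.1), SESN3 (AP000787.1) and FZD4 (AP001528.1) stretches.

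Of the 541 genes, 449 matched an entry of that table. Over the full 250 bases, the CCAAT box was present in 36.3% of the 449, in 36.3% of 7279 other promoters of genes expressed in CAL51 and in 33.0% of all 27305 promoters. The GC box was present in 69.5%, 70.4% and 42.3%. The TATA box was present in 2.90%, 4.66% and 11.1%, and the AP-1 element in 1.34%, 2.14% and 4.16%. In large clone 2 the median log2 difference was 0.26 with and 0.26 without the CCAAT box, and 0.26 with and 0.28 without the GC box. It was 0.26 in the 13 genes with the TATA box and 0.21 in the 6 with the AP-1 element, against 0.26 in the genes without either motif in turn.

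Over all 541 genes, large clone 2 stood above the 2N cells by a median log2 difference of 0.26, which is 1.20-fold. Large clone 1 stood at 0.23 (1.17-fold), the small clone at 0.095 and large clone 3 at 0.0096. The 2N libraries themselves had medians of -0.026 (parental), 0.0061 (clone 1) and 0.013 (clone 2), with an SD of 0.021 over the 3. The small clone and large clones 1 and 2 thus lay above the range of the 2N libraries, and large clone 3 lay inside it. Each 2N library is itself part of the mean it was set against, which narrows the 2N range and SD. The genes of all other chromosomes had a median of -0.024 in large clone 2, 0.066 in large clone 1, 0.057 in the small clone and -0.00037 in large clone 3. In large clone 2, 455 of the 541 genes (84.1%) were above the 2N mean, against 46.1% of the 8759 genes elsewhere. The interquartile range of the chromosome 11 genes ran from 0.072 to 0.48. Single genes went further, with 131 above 0.5 and 13 below -0.5.

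**Figure D1:**
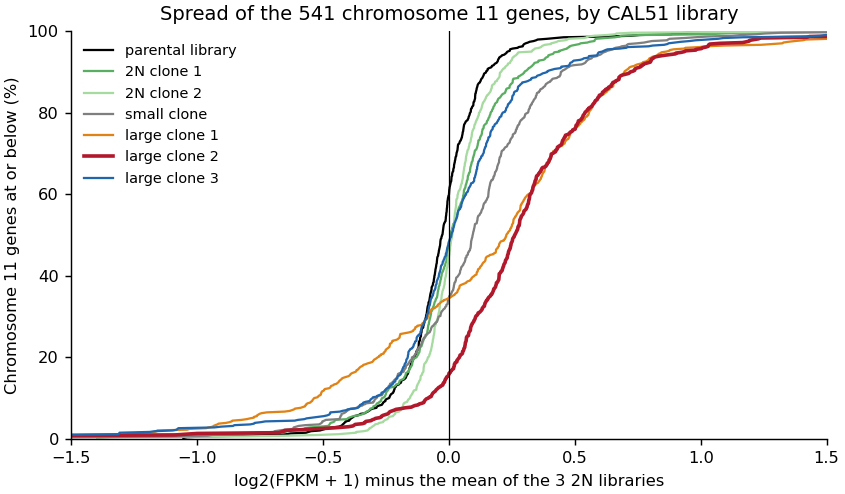
Cumulative distribution of the 541 chromosome 11 genes in each CAL51 library. The horizontal axis is log2(FPKM + 1) minus the mean of the 3 2N libraries, cut at -1.5 and 1.5, and the vertical axis is the percent of genes at or below that value. The curve of large clone 2 is shifted to the right along most of its length, with 84.1% of genes above 0, whereas that of large clone 1 is wider, with 65.6% above 0.

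The shift of large clone 2 was near the same in each part of the expression range. Its median was 0.28 in the lowest tercile of genes by level, 0.26 in the middle tercile and 0.25 in the highest. In large clone 1 the 3 medians were 0.069, 0.23 and 0.36, and in the small clone -0.034, 0.088 and 0.19. These last 2 clones thus differed more at abundant transcripts, which large clone 2 did not.

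Counting libraries gene by gene gave the same order of clones. Large clone 2 was above each of the 3 2N libraries at 360 of the 541 genes (66.5%, against 30.3% of all 9300 expressed protein-coding genes). It was below each of them at 37 (6.84%, against 31.9%). It was the highest of all 7 CAL51 libraries at 215 genes (39.7%, against 15.5%) and the lowest at 21 (3.88%, against 17.8%). Large clone 1 was above each 2N library at 292 genes (54.0%, against 43.5%), the small clone at 233 (43.1%, against 37.5%) and large clone 3 at 160 (29.6%, against 28.5%). All 3 large clones were above all 3 2N libraries at 70 genes (12.9%, against 6.12%) and below them at 7 (1.29%, against 5.25%). These counts used the comparison by which the chromosome was chosen, so nothing further is read from them.

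Among the 22 autosomes and the X chromosome, chromosome 11 had the highest median of large clone 2. Chromosome 10 followed at 0.23 over 374 genes. The other 21 lay between -0.14 (chromosome 3) and 0.038 (chromosome 2). In large clone 1 chromosome 11 had rank 4, after chromosomes 19 (0.36), 22 (0.25) and 16 (0.24), and the medians went down to -0.26 on chromosome 13. In the small clone it had rank 6 and in large clone 3 rank 9 of the 23.

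**Figure D2:**
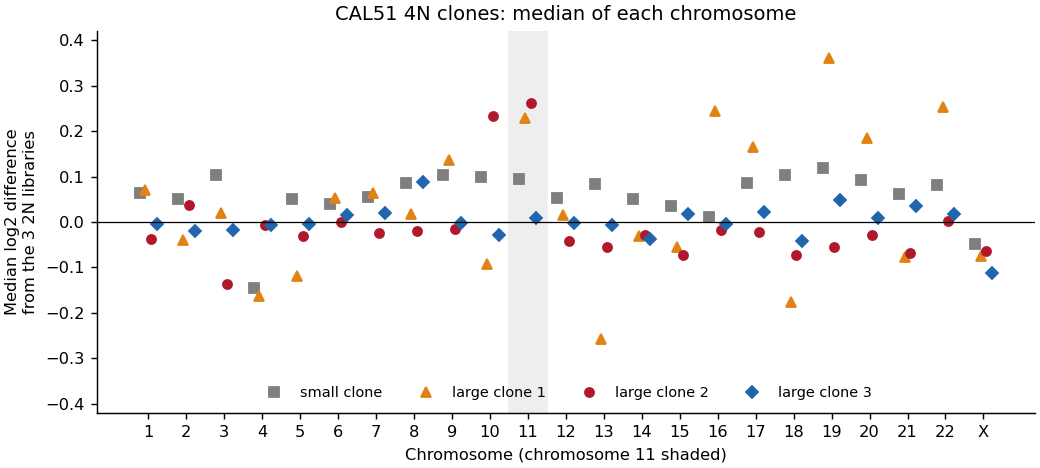
Median log2 difference from the 3 2N libraries for the expressed protein-coding genes of each chromosome, in the 4N clones of CAL51. Each symbol is 1 clone on 1 chromosome, and chromosome 11 is shaded. Large clone 2 stands near 0.26 on chromosome 11 and 0.23 on chromosome 10 and at 0.038 or less elsewhere, whereas large clone 1 is spread from -0.26 to 0.36 over the chromosomes.

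The higher level of large clone 2 ran along the whole chromosome. The short arm had a median of 0.25 over 172 genes and the long arm 0.27 over 369. In each of the 14 windows of 10 Mb, which held 9 to 165 genes, large clone 2 had a median between 0.19 and 0.31, with an SD of 0.037 over the windows. The lowest was the window from 90 to 100 Mb and the highest that from 30 to 40 Mb. In windows of 20 genes or more the range was 0.21 to 0.31. Large clone 1 was uneven, from -0.48 (90 to 100 Mb, 18 genes) to 0.40 (50 to 60 Mb, 19 genes), with 9 of 14 windows above 0. The small clone ranged from -0.031 to 0.16 and large clone 3 from -0.098 to 0.073.

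**Figure D3:**
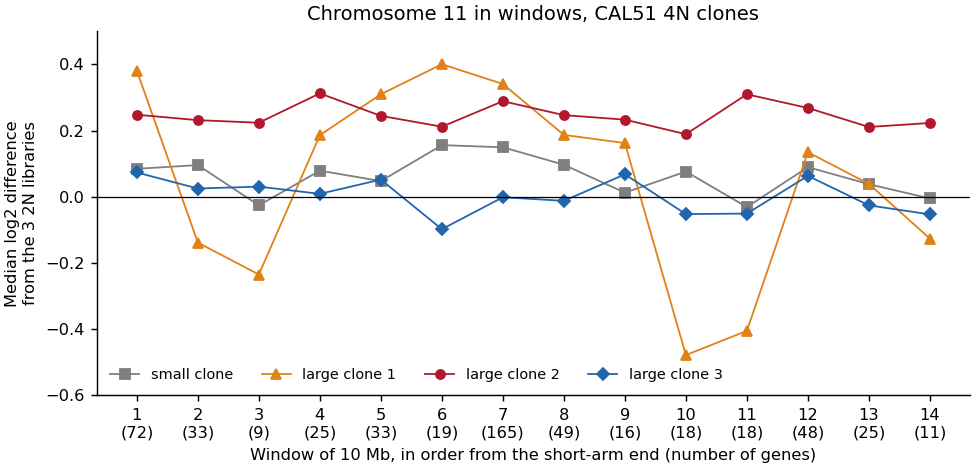
Median log2 difference from the 3 2N libraries in the 14 windows of 10 Mb along chromosome 11, in order from the end of the short arm, for the 4N clones of CAL51. The number of genes in each window is in brackets under the axis. Large clone 2 keeps between 0.19 and 0.31 in every window, whereas large clone 1 changes sign along the chromosome.

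The high median of large clone 1 moved with the base composition of the transcripts. Chromosome 11 genes had a median transcript GC content of 51.9%, against 48.2% for genes elsewhere. In large clone 1 the difference from 2N went with GC among genes elsewhere. Their median ran from -0.39 in the decile with the lowest GC to 0.44 in the highest decile, with deciles cut over all genes. Split into terciles by GC, the chromosome 11 genes of large clone 1 had medians of -0.26, 0.15 and 0.38, and genes elsewhere -0.28, 0.071 and 0.37. In large clone 2 the 3 medians were 0.24, 0.28 and 0.26 on chromosome 11, and -0.032, -0.012 and -0.031 elsewhere. Taken relative to genes elsewhere in the same decile of GC, an adjustment added after the data were seen, the chromosome's median was 0.040 in large clone 1 and 0.29 in large clone 2. The windows of 10 Mb then ran from -0.19 (130 to 140 Mb, 11 genes) to 0.39 (80 to 90 Mb, 16 genes) in large clone 1, with an SD of 0.15, and from 0.22 to 0.35 in large clone 2, with an SD of 0.038. The chromosome's adjusted median was 0.036 in the small clone and 0.0057 in large clone 3. By adjusted medians chromosome 11 had rank 3 of 23 in large clone 1 and rank 1 in large clone 2. It had rank 6 in the small clone and rank 12 in large clone 3. Whether the trend with GC in large clone 1 arose in its cells or in its library was not tested. By these values the level was higher along the chromosome in large clone 2, while in large clones 1 and 3 the adjusted medians were 0.040 and 0.0057.

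**Figure D4:**
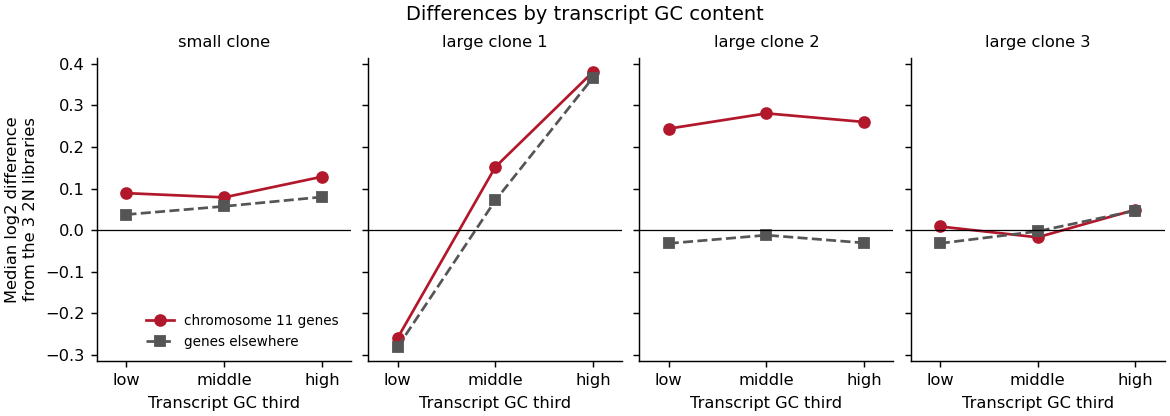
Median log2 difference from the 3 2N libraries by tercile of transcript GC content, for the 541 chromosome 11 genes (circles) and for genes elsewhere (squares), in the 4N clones of CAL51. In large clone 1 both lines climb together from about -0.26 and -0.28 to 0.38 and 0.37, whereas in large clone 2 the chromosome 11 line stays between 0.24 and 0.28 and the other line stays below 0.

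Of the chromosome's genes that the rule left out, those with enough RNA were examined, and 665 protein-coding genes under 0.5 FPKM were not. Of 103 protein-coding genes with a mean of 0.5 to 2 FPKM, 82 (79.6%) were above the 2N mean in large clone 2, with a median of 0.20. On other chromosomes 50.1% of 1880 such genes were. Of 37 genes that code for no protein, with a mean of 2 FPKM or more, 22 (59.5%) were above it, with a median of 0.12, against 49.2% of 756 elsewhere. The nuclear long RNA MALAT1 stood at 18.3 FPKM in large clone 2, against 10.5, 6.08 and 8.66 in the 2N libraries. NEAT1, the RNA scaffold of paraspeckles, stood at 7.91 against 6.29, 3.96 and 5.33. SNHG1, a host gene of small nucleolar RNAs, stood at 26.3 against 24.1, 25.7 and 22.9, near the median of its group. Just inside the limit of 2 FPKM lay HYLS1 (2.01), CALCB (2.04) and UVRAG (2.05), and just outside it LMNTD2, PRDM11 and PDE3B (1.98 each).

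Genes for mitochondrial proteins were the highest of the groups examined. The chromosome carries subunits of complex I, the succinate dehydrogenase anchor SDHD, COX8A and carriers and importers of the mitochondrion. All 16 expressed genes of that list were above the 2N mean in large clone 2, with a median of 0.58 and a range of 0.19 (TIMM10) to 1.80 (UCP2). COX8A (chr11:63974607-63976543) measured 531 FPKM in large clone 2. It measured 214, 283 and 263 in the 2N libraries, 282 in the small clone, 429 in large clone 1 and 296 in large clone 3. UCP2 (chr11:73974667-73983307) measured 85.4 FPKM in large clone 2, against 25.1, 21.3 and 25.2 in 2N, 38.7 in the small clone, 19.7 in large clone 1 and 27.1 in large clone 3. Both thus stood higher in large clone 2 than in the other 6 libraries. NDUFV1, a complex I subunit that binds NADH, measured 54.0 FPKM there against 31.7, 40.2 and 31.5 in 2N, and SDHD 40.2 against 22.8, 28.2 and 23.6.

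The same protein complexes are coded partly on other chromosomes, which shows how much of such a difference was shared. The 7 nuclear respiratory chain and ATP synthase genes of chromosome 11 had a median of 0.64 in large clone 2, and the 67 elsewhere had 0.52, with 65 of the 67 above 0. In large clone 1 the 2 medians were 0.52 and 0.54. The 7 mitochondrial ribosomal genes stood at 0.34 on chromosome 11 and the 68 elsewhere at 0.22 in large clone 2, and at 0.65 and 0.47 in large clone 1. A higher level of respiratory chain genes in large clone 2 was therefore not limited to chromosome 11. Large clone 2 also had the highest share of reads from the mitochondrial genome, 7.60%. Large clone 1 had 4.83%, within the range of the other libraries. Of these medians, only that of the respiratory chain genes of chromosome 11 was lower in large clone 1 than in large clone 2.

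Complexes of the cytosol gave a plainer contrast. The 6 cytosolic ribosomal protein genes of chromosome 11 had a median of 0.18 in large clone 2, and the 77 elsewhere had -0.15, with 12 of the 77 above 0. RPL27A, of the large ribosomal subunit, measured 119 FPKM against 70.5, 67.7 and 74.8 in 2N, and FAU, a fusion of a ubiquitin-like protein with a small-subunit protein, 123 against 103, 105 and 106. RPS3, of the small subunit, measured 104 against 94.3, 119 and 99.5 and lay within the 2N range. The 3 proteasome subunit genes of the chromosome, PSMA1, PSMC3 and PSMD13, had a median of 0.23 and were all above 0, whereas the 36 elsewhere had -0.070. PSMA1 measured 10.4 FPKM in large clone 2, against 6.19, 7.27 and 7.54 in 2N.

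The other groups ranged from little above the 2N mean to above the chromosome's own median. The median in large clone 2 was 0.38 for the mitochondrial ribosome list (8 of 8 above 0) and 0.30 for metabolism (27 of 36). It was 0.29 for proteasome and ubiquitin genes (13 of 14), 0.27 for lysosome and autophagy (21 of 24) and 0.25 for cytoskeleton and trafficking (27 of 28). DNA repair and checkpoint genes had 0.21 (21 of 24), splicing and RNA handling 0.21 (17 of 20) and ribosomal proteins 0.18 (5 of 6). A list of imprinted and growth genes on the short arm had 0.18 (7 of 10), cell surface genes 0.17 (6 of 12) and transcription factors 0.086 (10 of 13). The imprinted and growth list also held genes such as HRAS and RRM1, so its median is not that of imprinted genes alone. The 2 lists with the smallest shares or medians, cell surface genes and transcription factors, also held the widest ranges, from -1.09 (CD44) to 1.43 (MCAM) and from -1.75 (EHF) to 2.00 (FOSL1). Some lists also held genes outside their name. HIKESHI was in the mitochondrial ribosome list, and the 7 mitochondrial ribosomal protein genes alone had a median of 0.34 in large clone 2. The splicing list held the ferritin gene FTH1, and the metabolism list held the RNA polymerase subunit gene POLR2L.

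Among single genes of these groups, DHCR7 and DDB2 differed most within their lists, by more than the chromosome's median. DHCR7, the last enzyme of cholesterol synthesis, measured 62.8 FPKM in large clone 2 against 18.95, 35.4 and 27.7 in 2N. DDB2, which recognises ultraviolet damage in DNA, measured 15.5 against 4.62, 7.86 and 6.57. DDB1, its partner in a ubiquitin ligase, measured 33.9 against 24.2, 26.6 and 24.9. CKAP5, a microtubule polymerase of the spindle, measured 45.5 against 33.5, 38.4 and 35.7, but 24.3 in large clone 1. The checkpoint kinase gene CHEK1 measured 8.52 against 5.53, 6.38 and 5.85. POLD3, a subunit of DNA polymerase delta, went the other way, at 5.93 against 8.63, 9.17 and 9.48.

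Genes listed for cell cycle, growth and survival on the long arm, GSTP1 among them, had a median of 0.20 in large clone 2, with 18 of 22 above 0. CCND1 (chr11:69641087-69654474) measured 309 FPKM in large clone 2 and 301 in large clone 3. It measured 219, 220 and 202 in the 2N libraries, 255 in the small clone and 216 in large clone 1. Large clones 2 and 3 thus stood above all other CAL51 libraries, and large clone 1 within the 2N range. YAP1, the growth co-activator of the Hippo pathway, measured 40.7 in large clone 2, 38.4 in large clone 3 and 17.2 in large clone 1, against 30.3, 31.8 and 34.0 in 2N. BAD, which promotes cell death, measured 23.1 in large clone 2 and 22.5 in large clone 1, against 13.4, 13.5 and 17.1 in 2N.

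The most abundant transcripts of the chromosome did not follow a single pattern. FTH1, the heavy chain of ferritin, measured 1772 FPKM in large clone 2 and 1806 in large clone 1, and 984, 634 and 1569 in 2N. GSTP1, a glutathione transferase, measured 855 in large clone 2, within the 2N values of 792, 1468 and 1021, and 2580 in large clone 1. The chaperone gene HSPA8 measured 399, just below the 2N values of 400, 448 and 429. MDK, the growth factor midkine, measured 460.5 FPKM against 318, 227 and 359 in 2N, and was as high or nearly so in the small clone (519), large clone 1 (430) and large clone 3 (435).

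Against this shift a few genes stood far out, and most of them were set by 1 or 2 libraries. SPON1 (chr11:13962689-14267884), which codes for the matrix protein F-spondin, measured 148 FPKM in large clone 2. It measured 7.28, 0.133 and 70.0 in the 2N libraries, 1.11 in the small clone, 13.6 in large clone 1 and 0.683 in large clone 3. On the log2 scale the 2N libraries differed among themselves by more than large clone 2 differed from the highest of them. CALCB (chr11:14904997-15082342), the gene of a calcitonin gene-related peptide, measured 13.9 in large clone 2 and at most 0.136 in the other 6 libraries, so it reached the limit of 2 FPKM only through large clone 2. The same held for 4 others of the 541 genes, C11orf80, CDC42BPG, FBXO3 and SCGB1D2.

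The stretch from SPON1 to CALCB was looked at after these values were seen. It holds 9 protein-coding genes, of which AC018523.2 and CALCA had only 1 and 2 reads in large clone 2 and were listed at 0 in the other 6 libraries. At the 5 genes between the ends with more reads, large clone 2 was the highest of the 7 libraries. The ends were picked because large clone 2 was highest there. PDE3B (chr11:14643723-14872044), a cyclic nucleotide phosphodiesterase gene just under the expression limit, measured 8.77 FPKM in large clone 2. It measured 0.583, 0.0771 and 3.21 in 2N, 0.163 in the small clone, 0.909 in large clone 1 and 0.120 in large clone 3, the same order of the 7 libraries as at SPON1. SPON1, PDE3B and CALCB lie on the plus strand. RRAS2, COPB1, PSMA1 and CYP2R1 between them lie on the minus strand, with log2 differences of 0.67, 0.30, 0.51 and 0.51. CALCB overlaps CALCA on the other strand, and whether the counting used strand is not given in the sources used here.

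FOSL1 (chr11:65892049-65900573), the AP-1 subunit FRA1, was higher in every 4N clone of CAL51 than in the 2N libraries. It measured 13.3 FPKM in large clone 2, 6.12 in large clone 1, 6.28 in large clone 3 and 5.83 in the small clone, against 2.84, 2.01 and 2.94 in 2N. Other genes with a wide lead in large clone 2 were CDC42BPG, a kinase of the CDC42 pathway (8.91 against at most 3.02 FPKM elsewhere in CAL51), and SCGB1D2, a secretoglobin (7.39 against at most 2.67). PTPRJ, a receptor tyrosine phosphatase, measured 43.3 against 16.9 to 23.4 in the other 6 libraries. ACAT1 measured 27.2 against 12.2 to 14.9 in the other 6. SESN3 measured 9.28 against 2.71, 0.569 and 3.28 in 2N. PKP3, a plaque protein of desmosomes, measured 22.8 against 6.20, 11.4 and 10.5. TMEM123 measured 45.6 in large clone 2, but its 2N values of 31.1, 3.53 and 35.3 were spread wider than that lead.

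Of the genes that were lower in large clone 2, FZD4 differed from every other library. FZD4 (chr11:86945679-86955391) measured 2.27 FPKM in large clone 2. It measured 15.3, 17.5 and 14.4 in 2N, 17.3 in the small clone, 19.9 in large clone 1 and 14.9 in large clone 3, so the other 6 libraries lay close together. ADAMTS15, a secreted metalloprotease, measured 3.68 in large clone 2 and 7.23 in large clone 1, against 16.7, 38.6 and 17.1 in 2N. CLCF1, a cytokine of the interleukin 6 family, measured 3.85 against 6.49, 11.4 and 8.87. IL18, an inflammatory cytokine, measured 5.60 in large clone 2 and 5.21 in large clone 1, against 10.7, 10.1 and 8.04 in 2N and 22.7 in large clone 3.

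Several of the low genes were high in 2N clone 1 and the small clone only. CD44, the hyaluronan receptor, measured 41.9 FPKM in 2N clone 1 and 62.0 in the small clone, and 0.887 to 7.97 in the other 5 libraries, where large clone 2 stood at 4.67. EHF, an epithelial transcription factor of the ETS family, measured 10.4 and 12.3 in that pair and 0.284 to 3.17 elsewhere, with 0.284 in large clone 2. ADAMTS8, a further metalloprotease, measured 11.3 and 12.4 in the pair and 0.655 to 4.13 elsewhere. For these 3 genes the 2N mean rests on 1 of the 3 libraries. FOLR1, the folate receptor, measured 121 in 2N clone 1, 109 in large clone 1 and 92.9 in the small clone, and 32.2 to 41.3 in the other 4. IFITM1, an interferon-induced membrane protein, measured 4.27 in large clone 2 and 0.958 in large clone 1, against 29.9, 2.58 and 10.6 in 2N and 33.5 in large clone 3. PITPNM1, a phosphatidylinositol transfer protein, measured 32.3 in large clone 2 against 51.5, 62.0 and 43.6 in 2N.

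**Figure D5:**
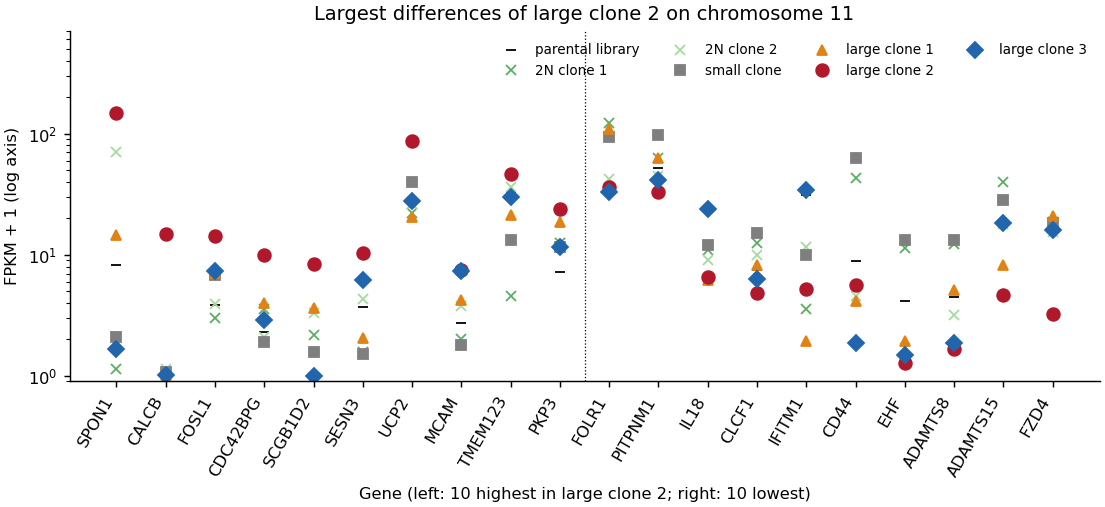
FPKM + 1 on a log axis in the 7 CAL51 libraries for the 10 chromosome 11 genes with the highest and the 10 with the lowest log2 difference of large clone 2 from the 2N mean. Each symbol is 1 library. FZD4 shows 1 low symbol (2.27 FPKM) under 6 that lie together, whereas SPON1, CD44 and EHF are spread widely among the 2N libraries as well.

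The contrast of the 3 large CAL51 clones with 2N is the one by which the chromosome was chosen, so its fit is only described. Over all 14835 genes, limma with Benjamini-Hochberg adjustment to 0.05 called 3 of the 540 chromosome 11 genes that could be tested (all genes: 0.762%). They were FOSL1, TAF10 and TUB, all higher in large clones. TAF10, a subunit of general transcription factor TFIID, measured 0.541 FPKM in the parental library, 3.03 and 4.29 in the 2N clones and 4.79 to 7.30 in the large clones. It was not called without the parental library, whose gap from the 2N clones is not part of the spread in the fit. Leaving out large clone 3 gave 27 on the chromosome, while the share of all genes rose to 2.71%. Leaving out large clone 1 gave 7 (all genes: 1.21%), large clone 2 gave 6 (1.30%) and 2N clone 2 gave 9 (1.39%). Leaving out 2N clone 1 gave 1 (0.58%), as did the parental library (0.465%). A fit of CAL51 by itself called 0, of the chromosome and of all genes.

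Large clones against the small clone gave 10 calls in CAL51 by the same limma fit (all genes: 1.52%). The small side is 1 clone, whose spread is taken from the other groups and lines, and the large side holds the clone for which the chromosome was chosen, so these too are described only. Higher in large clones were ST14, SLC35F2, REXO2, PAK1, FADS2 and TUB. Lower were CD44, ZBTB44, TMEM45B and ADAMTS8. ST14, the membrane protease matriptase, measured 3.47, 4.08 and 4.48 FPKM in the large clones and 0.853 in the small clone, with 2.22, 2.10 and 1.69 in 2N. PAK1, a kinase of the cytoskeleton, measured 3.54, 4.22 and 4.15 in large clones and 1.52 in the small clone, with 3.21, 2.88 and 3.98 in 2N. FADS2, a fatty acid desaturase, measured 22.96, 31.8 and 21.4 against 10.99, with 14.0, 22.2 and 18.3 in 2N. At these 3 genes the single small clone stood below all 6 other libraries. Leaving out large clone 1 gave 20 calls (all genes: 2.89%) and leaving out large clone 3 gave 18 (2.47%). A fit of CAL51 by itself called 0 (all genes: 0.0135%).

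HCT116 and DLD1 were not used to choose the chromosome, and there its genes can be tested. Of the 541 genes, 495 reached a mean of 2 FPKM in HCT116 and 485 in DLD1. In HCT116 their median log2 difference from that line's 2N libraries ran from -0.055 to 0.082 over the 6 4N clones. In DLD1 it ran from -0.0050 to 0.052 over the 7 4N clones. The single highest of these 13 medians, 0.082 in HCT116 large clone 3, was under the 0.26 of CAL51 large clone 2. Chromosome 11 thus showed no median of that size in any 4N clone of the other 2 lines. The 2N libraries lay between -0.0084 and 0.0080 in HCT116 and between -0.032 and 0.032 in DLD1. Both ends of the HCT116 clone range and the upper end of the DLD1 clone range were outside these. Over all expressed protein-coding genes, the median was 0.024 in HCT116 large clone 1, the lowest clone on chromosome 11, and 0.038 in HCT116 large clone 3.

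Gene by gene, 1 of 540 chromosome 11 genes passed the limma test between large and small HCT116 clones (all genes: 0.445%), and 79 had an unadjusted p under 0.05 (14.6%, against 15.4% of all genes). None of the 540 passed between large and small DLD1 clones by limma (all genes: 0.472%), with 25 at an unadjusted p under 0.05 (4.63%, against 6.65%). Between 4N and 2N libraries, 0 passed in HCT116 by limma (all genes: 0.263%) and 0 in DLD1 (all genes: 0.00674%). Unadjusted, 53 in HCT116 (9.81%, against 11.1%) and 11 in DLD1 (2.04%, against 3.04%) had a p under 0.05 in limma. Limma voom on the recovered reads called 0 in each of these 4 comparisons (all genes: 0.229%, 0.324%, 0.0539% and 0%, in the order above). The shares called on the chromosome were thus at or under those of all genes. The difference between HCT116 and DLD1 was itself tested in the same fit, and 0 chromosome 11 genes passed in limma, against 0.155% of all genes for large and small clones and 0.0135% for 4N and 2N. Without HCT116 large clone 2 the first count was 26, which is 4.81% of the chromosome's genes against 6.98% of all. It was 2 without small clone 2 (all genes: 1.04%) or small clone 3 (0.937%), and 0 without small clone 1 (0.195%) or large clone 1 (0.189%).

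The gene that passed in HCT116 was MCAM (chr11:119308529-119321521), which codes for the cell adhesion molecule CD146. It measured 2.72, 3.03 and 1.45 FPKM in the small HCT116 clones and 9.81, 5.53 and 26.5 in the large ones, with 6.31, 6.62 and 4.91 in the 2N libraries. The small and large clones did not overlap, and the 2N libraries lay between the means of both. The log2 difference was 1.91 (SE 0.368, limma adjusted p = 0.0256). It passed in 4 of 11 alternatives, whose adjusted p in limma ran from 0.00181 to 0.362. In CAL51 MCAM measured 3.26, 6.45 and 6.34 in the large clones, 0.813 in the small clone and 1.74, 1.02 and 2.80 in 2N. In DLD1 it was close to absent, at 0.00723 to 0.128 FPKM.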

How the data were processed

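The authors trimmed reads with fastp, aligned them to GRCh38 with HISAT2 2.0.5 and counted them per gene with featureCounts 1.5.0-p3, and used DESeq2, per the submitters' processing notes; use of strand is not given in the sources used here. The deposited table holds 1 FPKM value per gene and library for 26 libraries. Libraries were grouped by their labels, and each clone was 1 replicate. FPKM times length was a whole multiple of 1 read (within 0.01) for 100% of values, so reads were recovered for depth and for limma voom. Depth was 23.5 M to 44.5 M reads. Level differences used log2(FPKM + 1). Genes with 1 FPKM or more in at least 3 libraries (14835) were fitted in limma 3.58.1 (R 4.3.3) with a mean for each group and shared spread, with Benjamini-Hochberg adjustment over all genes. No sample is missing from that fit. P-values rest on how far clones within a group differ, and the labels call these clones biological replicates. Parental libraries and 2N clones were separate groups in the fit, so a gap between them adds nothing to the spread. Groups of 1 library, the parental ones and the small CAL51 clone, add nothing to it either. Arms were split at 53 Mb. GC content came from GENCODE 29 transcripts, whose coordinates matched for all 541 genes. The script was tested on simulated data. Figures used matplotlib 3.10.9.

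The chromosome, its gene lists and the rules were chosen with earlier results of these data known. The genes named are the 10 highest and 10 lowest in CAL51 large clone 2, the 8 with the widest lead there, the 6 most abundant, up to 6 per list, those past a limma threshold and the 3 on each side of the expression limit. Genes of a list outside the 6, and the stretch from SPON1 to CALCB, were named after their values were seen.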

Additional observations from a re-analysis of the deposited data

Results flagged for a closer look

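In DLD1 the median log2 difference of the chromosome 11 genes from that line's 2N libraries was 0.0127 in large clone 3. The other 3 large DLD1 clones had -0.0040, -0.0047 and -0.0050, so this clone stood apart from 3 that lay close together. The limit of the flag is a relative gap that appears by chance in about 1 in 20 groups. The chance of the gap seen here was not computed. The value lay within the range of the DLD1 2N libraries, -0.032 to 0.032.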

How the results depend on the processing

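The median of large clone 2 stayed between 0.25 and 0.29 in every setting tried: 0.2872 with a pseudocount of 0.1 (short arm 0.2787, long arm 0.2897), 0.29 relative to genes of equal GC and 0.2508 to 0.2741 leaving out a 2N library. That of large clone 1 was 0.1988 and 0.2986 with an expression limit of 1 and 10 FPKM, 0.1977 with each library centred on its median, 0.03961 relative to genes of equal GC and 0.2063 to 0.2334 leaving out a 2N library. That of the small clone was 0.1625 with a limit of 10 FPKM, 0.04766 centred, 0.03644 relative to genes of equal GC and 0.08555 to 0.1033 leaving out a 2N library. That of large clone 3 stayed between -0.01133 and 0.01502 and changed sign, within the SD of the 2N libraries. Large clone 2 was highest of 7 at 99 genes with a limit of 10 FPKM, where fewer genes were counted, and at 285 without large clone 1. The share over all genes was not computed for these settings, so nothing is read from the counts. Counts of chromosome 11 genes past the limma threshold follow, with the share of all genes in brackets. For large against small HCT116 clones they were 0 with a pseudocount of 0.1 (0.249%) and 3 with a looser filter on low values (0.466%). They were 0 with the line fitted alone (0.0202%), 0 with voom (0.229%) and 0 to 26 leaving out a clone (0.189% to 6.98%). In DLD1 they were 0 to 1 over the settings (0.121% to 0.593%). For large CAL51 clones against the small clone they numbered 6 with a pseudocount of 0.1 (1.1%), 0 alone (0.0135%) and 4 with voom (0.681%). They numbered 10 to 20 leaving out a large clone (1.58% to 2.89%). For large CAL51 clones against 2N the counts were 0 alone (all genes: 0%), 1 with voom (0.418%) and 1 to 27 leaving out a library (0.465% to 2.71%). For 4N against 2N in HCT116 there was 1 with the looser filter (all genes: 0.751%) and 0 to 2 leaving out a library (0.0337% to 1.04%). With the replicate block, 4 genes passed in HCT116 (all genes: 1.6%) and 0 in DLD1 (all genes: 0.458%). Same-numbered clones correlated at 0.0284, 0.161 and 0.164 in HCT116 and at 0.00052, 0.0852 and -0.0558 in DLD1. Each small HCT116 clone correlated best with the large clone of its number, whereas in DLD1 this held for small clone 2 only. The labels do not say whether clones of the same number belong together, and the main fit did not pair them. The causes of the changes between settings were not tested. Of the values of single named genes under these settings, 48 lost their call and 63 did not, with no change of direction. The planned edgeR and DESeq2 fits were not run, because the values are FPKM. With 1 small CAL51 clone, that clone could not be left out. The settings with equal GC, voom, and highest of 7 without large clone 1 were chosen after seeing the data.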
